A study of Arabidopsis thaliana with 12 samples.

Results

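The question addressed here was whether rosettes of the Arabidopsis thaliana mutant atx1 answered water deficit differently from rosettes of wild type and of the line MYO-OX. The quantity was a difference of responses: the log2 signal under deficit minus the log2 signal in watered plants in atx1, minus the mean of the same difference in wild type and in MYO-OX. A negative value means that the response of atx1 lay below that of the other lines, and a positive value that it lay above. All 12 arrays of the study and all 22746 probe sets that are not array controls entered it, out of 22810 on the array. Each of the 6 groups held 2 arrays, labelled as biological replicates, so the reference consisted of 4 arrays in each water state.

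The groups were wild type Columbia-0, the mutant labelled ATX1 and the line labelled MYO-OX, each as vegetative rosettes of plants 4 weeks old that either stayed on water or were left without it until relative water content had dropped to 65%. The allele of atx1, its parental accession and the promoter of the MYO-OX construct are not given in the labels, so the mutation and any difference in accession cannot be told apart. No probe set was annotated to ATX1 or to MTM1, and the levels of both genes were not analysed here.

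As background, ATX1 is a plant homologue of Trithorax, an enzyme that methylates lysine 4 of histone H3, a mark found at transcribed genes, and it is known to take part in abscisic acid synthesis and in the dehydration response. It also binds a phosphoinositide that the lipid phosphatase myotubularin makes, and MYO-OX is named for overexpression of a myotubularin. Rosettes that lose water typically switch on genes for protective hydrophilic proteins, osmolytes and chaperones, and switch off genes for wall extension and photosynthesis.

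Before the results, 3 properties of the arrays bear on every value given here. The RNA of the atx1 deficit arrays gave the largest difference between the 3' and the 5' probe set of the Athal GAPDH control, a measure of how evenly a transcript was copied along its length: 1.74 and 1.19 on the log2 scale, against 0.44 to 1.09 on the other 10 arrays. The second such pair, r2, was at 0.20 and 0.08 on the atx1 deficit arrays, within the range of the others, which ran from -0.25 to 0.40. The spiked hybridization controls averaged 9.85 ± 0.26 (SD, n = 2) on the atx1 deficit arrays, against group means of 8.48 to 9.19, and replicate 1 was above replicate 2 in every group. The watered MYO-OX arrays agreed least with each other, with r = 0.928 over all probe sets, against 0.968 to 0.987 in the other groups. The part of these properties in the results was not tested beyond the fits given with the counts.

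**Figure D1:**
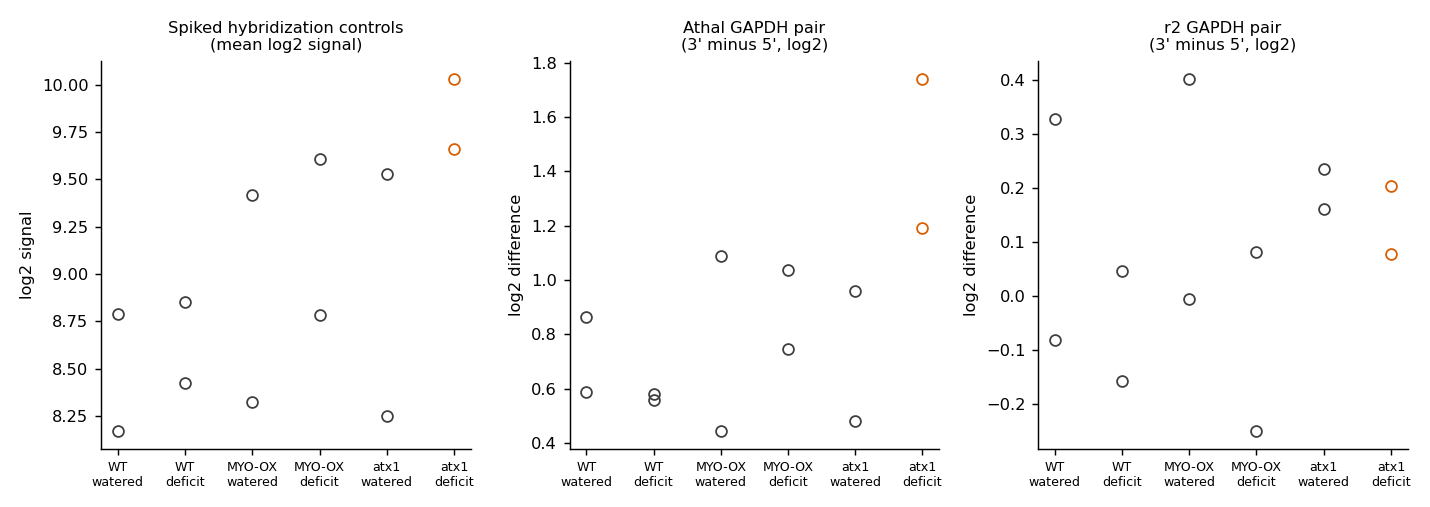
Control probe sets on each of the 12 arrays (circles), by group: mean log2 signal of the 18 spiked hybridization control probe sets (left), and the log2 difference between the 3' and 5' probe sets of the Athal (middle) and r2 (right) GAPDH pair. The atx1 deficit arrays (orange) lie highest for the spiked controls and for the Athal pair, at 1.74 and 1.19, but inside the range of the others for the r2 pair.

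The response of atx1 differed from that of the reference in 221 probe sets, 0.972% of the 22746 tested, at a limma p adjusted by the Benjamini-Hochberg method under 0.05. The response of atx1 was higher in 129 (0.567%) and lower in 92 (0.404%), and 220 of the 221 differences were at least 2-fold. Among the 92 lower probe sets, the mean response of wild type and MYO-OX was at least 1 above 0 on the log2 scale in 90. In 61 of these 90 the response of atx1 was within 1 of 0, in 28 it was above 1, and in 1 it was below -1. The median response was 3.42 in the reference and 0.54 in atx1, with a median difference of -2.53.

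The 129 higher probe sets were of 2 kinds. In 90, the reference response was -1 or lower, and here atx1 stayed within 1 of 0 in 65, was also -1 or lower in 23 and was above 1 in 2. In 38, the reference response was within 1 of 0, and in 36 of these the signal of atx1 was higher under deficit by at least 1. The median response of atx1 over the 38 was 1.87. The remaining probe set was above 1 in the reference. Most of the called differences combined a large response in wild type and MYO-OX with a small response in atx1, and a smaller number a response in atx1 without a counterpart in the other lines.

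**Figure D2:**
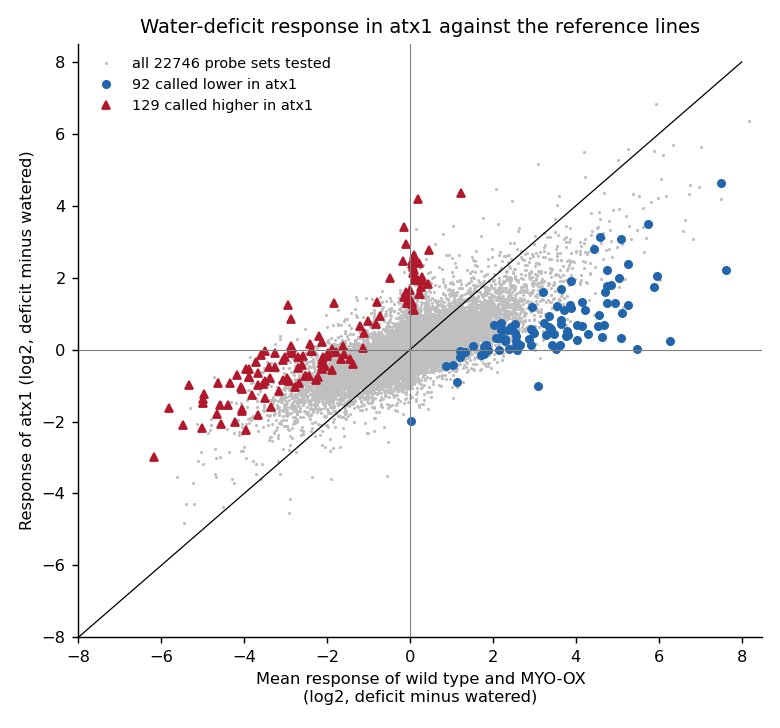
Response to water deficit (log2, deficit minus watered) of atx1 against the mean response of wild type and MYO-OX, for all 22746 probe sets tested (grey) with the 92 called lower (blue circles) and the 129 called higher (red triangles). The line marks equal responses; the blue points lie below it with reference responses mostly above 1, and the red points above it, 38 of them near a reference response of 0.

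The same test was applied to the responses of the 2 reference lines. The difference between the MYO-OX and the wild-type response was called in 0 probe sets (0%), with 276 at an unadjusted p under 0.05, against 3243 for the atx1 contrast. The unadjusted count rested on single arrays and settings: it was 3374 without replicate 2 of watered MYO-OX (5321 for the atx1 contrast), 998 without replicate 2 of MYO-OX under deficit (2713), 1183 with the mean GAPDH difference as a covariate (3344) and 2012 with the Athal difference alone (3367). Leaving out replicate 1 of watered wild type gave 1 call after adjustment, and every other alternative run for this comparison gave 0. A count of 0 does not show that the 2 lines responded alike. This contrast is also less precise than that of atx1, which has 4 reference arrays in each water state. Among the 221 probe sets, the absolute difference between the MYO-OX and wild-type responses had a median of 0.23 and a maximum of 1.37. This is a description, since the 221 were chosen by a test on the same arrays.

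The size of the count depended on single arrays. It was 28 and 67 without replicates 1 and 2 of watered wild type, 15 and 19 without those of watered atx1, 41 without replicate 1 of wild type under deficit, 29 without replicate 1 of atx1 under deficit, 34 without replicate 2 of MYO-OX under deficit, and 847 without replicate 2 of watered MYO-OX. Without replicate 1 of watered MYO-OX it was 266. With the Athal GAPDH difference as a covariate, chosen after seeing the data, 23 probe sets were called, and with the mean of both GAPDH pairs 100. With each array centred on its median, every difference of responses moved by -0.13 and the split turned from 129 higher and 92 lower to 78 higher and 122 lower. The smallest called difference was 0.96 in size, so no called value changed sign.

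In the main fit, the 221 called probe sets were sorted by the water state with the larger gap between atx1 and the reference mean. In 183 the gap was larger under deficit than in watered plants. In 38 it was not, 7 of them lower and 31 higher. The same share was not counted over all probe sets, so these counts only describe the called ones. Over all probe sets, atx1 differed from the reference mean in 3894 (17.1%) under deficit, 2341 higher (10.3%) and 1553 lower (6.83%), and in 881 (3.87%) in watered plants, 479 higher (2.11%) and 402 lower (1.77%), by the same limma test. With arrays centred on their medians the splits were 1411 higher and 2391 lower under deficit, and 364 higher and 486 lower in watered plants. The deficit count was 2054 without replicate 1 of wild type, 1263 without replicate 1 of atx1 and 2569 without replicate 2 of MYO-OX, each under deficit. The watered count was 462 and 576 without replicates 1 and 2 of wild type, 332 and 306 without those of atx1, and 2181 without replicate 2 of MYO-OX. With the Athal GAPDH difference as a covariate, the counts were 2216 under deficit and 1585 in watered plants. With the mean of both GAPDH pairs they were 2876 and 1475. Of the 3894 deficit calls, 1328 remained in the Athal fit and 1819 in the fit with the mean.

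**Figure D3:**
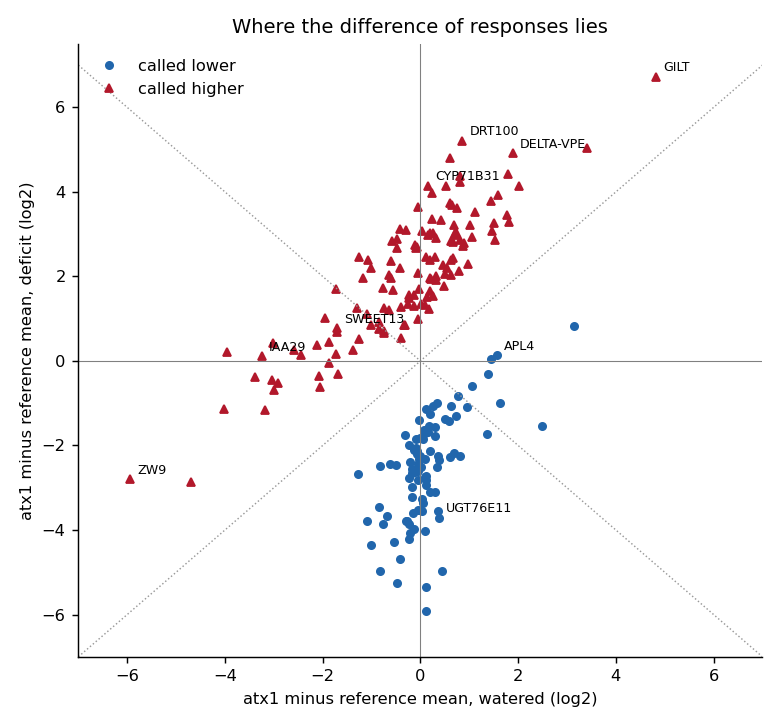
Gap between atx1 and the mean of wild type and MYO-OX (log2) in watered plants (x axis) and under deficit (y axis) for the 92 probe sets called lower (circles) and the 129 called higher (triangles). Dotted lines mark gaps of equal size: 183 probe sets have the larger gap under deficit, while ZW9 and IAA29 lie far to the left.

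Of the 221 probe sets, 113 were matched to a single locus and 28 to a gene with a symbol, 10 lower and 18 higher in atx1. The named genes are the 10 of each direction with the largest difference; the other 8 (GILT, GH3.17, MYC4, THE1, FLDH, SWEET14, RALFL25 and LCR72) were named after their values were seen. Values are log2 signals of replicate 1 and replicate 2 in each group, and responses within a genotype are given as values without a test. Counts of called members of a list stand against 0.567% of all probe sets called higher and 0.404% called lower, and counts by sign against 47.9% above 0 and 52.1% below. Since the lists were chosen with earlier results of these data known, these shares are a description and not a test.

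Of the 10 genes with a symbol that were called lower, 4 encode UDP-glycosyltransferases, enzymes that attach sugars to hormones, flavonoids and other small molecules. The 1551 probe sets with a symbol include 47 genes of this family. UGT76E11 stood in watered plants at 6.67 and 6.09 in wild type, 5.29 and 5.75 in MYO-OX and 6.56 and 6.10 in atx1, and under deficit at 9.48 and 8.74 in wild type, 8.47 and 9.43 in MYO-OX and 5.49 and 5.16 in atx1. Both reference lines were higher under deficit on every array, and atx1 was lower, with no overlap between its deficit arrays and theirs. The difference of responses was -4.08 (SE 0.49, limma adjusted p = 0.0182), a 16.9-fold gap. UGT76E12 was in watered plants at 6.2 and 6.24 in wild type, 6.35 and 5.47 in MYO-OX and 4.88 and 5.09 in atx1, and under deficit at 10.58 and 9.58 in wild type, 9.52 and 10.10 in MYO-OX and 6.03 and 6.27 in atx1. Here atx1 was higher under deficit too, but from a lower start and to a level that the watered reference lines already had. Its difference of responses was -2.71 (SE 0.47, limma adjusted p = 0.0452). On chromosome 3 these 2 genes are separated by 2 annotated loci.

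UGT85A3 in watered plants was at 4.53 and 4.60 in wild type, 4.67 and 4.2 in MYO-OX and 4.27 and 4.37 in atx1, and under deficit at 7.29 and 6.84 in wild type, 6.74 and 7.32 in MYO-OX and 4.39 and 4.42 in atx1. The deficit arrays of atx1 lay at the watered level of all 3 lines, well below those of the reference. The contrast with the reference response was -2.46 (SE 0.31, limma adjusted p = 0.0203). For UGT85A5, the neighbouring gene on chromosome 1, the watered signals were 5.47 and 5.76 in wild type, 6.12 and 5.96 in MYO-OX and 5.19 and 5.45 in atx1, and those under deficit 9.51 and 9.67 in wild type, 9.07 and 9.64 in MYO-OX and 6.65 and 7.39 in atx1. All lines were higher under deficit, atx1 least, with a difference of -1.95 (SE 0.35, limma adjusted p = 0.0488). Members with a UGT symbol were collected from the annotation after values were seen, and any without such a symbol were left out. Of these 47, 4 were called lower, where 0.404% of all probe sets were, and 0 higher. In 36 the difference lay below 0, and the median was -0.26. Over all probe sets 52.1% lay below 0, with a median of -0.02.

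SWEET4, a plasma membrane sugar transporter, was at 5.95 and 5.91 in wild type, 6.78 and 6.50 in MYO-OX and 6.93 and 6.81 in atx1 in watered plants, and at 11.42 and 11.20 in wild type, 11.62 and 11.23 in MYO-OX and 9.86 and 10.04 in atx1 under deficit. It was strongly higher under deficit in every line, and the atx1 deficit arrays lay below all 4 of the reference. The contrast with the reference response was -2.00 (SE 0.23, limma adjusted p = 0.0169). APL4 encodes a large subunit of ADP-glucose pyrophosphorylase, the enzyme that commits glucose to starch. Its watered signals were 3.78 and 3.80 in wild type, 4.43 and 4.13 in MYO-OX and 5.62 and 5.58 in atx1, and its deficit signals 8.55 and 8.67 in wild type, 8.38 and 8.83 in MYO-OX and 8.84 and 8.63 in atx1. Under deficit the groups overlapped, and atx1 differed by its higher watered level. The contrast with the reference response was -1.44 (SE 0.24, limma adjusted p = 0.0397), and the gap between atx1 and the reference was 1.56 (limma adjusted p = 0.00207) in watered plants and 0.13 (limma adjusted p = 0.677) under deficit. Of 8 measured genes of starch and sugar transport, these 2 were called, both lower, where 0.404% of all probe sets were. The list was divided by sign, with 4 members above 0 and 4 below and a median of 0.04. On the higher side SWEET16 was at 1.65 (SE 0.47, limma adjusted p = 0.164) and SWEET11 at 0.98 (SE 0.20, limma adjusted p = 0.0671), neither of which passed.

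RD2, named as a gene responsive to desiccation, was at 9.999 and 10.30 in wild type, 10.01 and 10.29 in MYO-OX and 10.70 and 10.22 in atx1 in watered plants, and at 13.02 and 12.38 in wild type, 12.57 and 12.76 in MYO-OX and 10.94 and 10.89 in atx1 under deficit. The reference lines were 2.55 and 2.51 higher under deficit and atx1 only slightly so, with a difference of responses of -2.07 (SE 0.32, limma adjusted p = 0.0335). ATGLR1.2 belongs to the glutamate receptor-like ion channels. It was at 4.33 and 4.03 in wild type, 4.08 and 4.03 in MYO-OX and 4.06 and 4.14 in atx1 when watered, and at 6.87 and 6.42 in wild type, 6.47 and 6.94 in MYO-OX and 4.29 and 4.41 in atx1 under deficit. The atx1 deficit arrays lay below every reference deficit array, at -2.31 (SE 0.27, limma adjusted p = 0.0169) for the difference of responses. NDB2, an NAD(P)H dehydrogenase on the outer side of the inner mitochondrial membrane, was at 7.68 and 7.89 in wild type, 7.80 and 8.01 in MYO-OX and 8.07 and 8.0 in atx1 when watered, and at 10.09 and 10.06 in wild type, 9.86 and 10.14 in MYO-OX and 8.74 and 8.80 in atx1 under deficit. Again all lines were higher under deficit and atx1 least, with a difference of responses of -1.46 (SE 0.20, limma adjusted p = 0.025).

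Of the heat shock proteins and factors, 4 of 16 list members were measured, 2 were called lower, where 0.404% of all probe sets were, and all 4 lay below 0, where 52.1% did, with a median of -1.74. ATHSP22.0, a small heat shock protein that keeps unfolded proteins soluble, was at 4.2 and 4.25 in wild type, 4.28 and 4.07 in MYO-OX and 4.03 and 4.13 in atx1 in watered plants, and at 6.77 and 6.55 in wild type, 6.78 and 5.87 in MYO-OX and 4.23 and 4.53 in atx1 under deficit. The watered groups overlapped, and under deficit atx1 stayed near the watered level while the reference arrays were all higher. The difference of responses was -1.99 (SE 0.34, limma adjusted p = 0.0433). The other called member, the locus AT1G53540, had deficit signals of 7.86 and 7.75 in wild type, 6.97 and 7.36 in MYO-OX and 4.37 and 5.59 in atx1, and a difference of -2.49 (SE 0.45, limma adjusted p = 0.0482). The 2 members that did not pass were AT5G37670 at -1.48 and AT5G51440 at -0.03.

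The most negative difference of all probe sets belonged to a locus without a symbol in the annotation. This locus, AT2G42560, was at 4.15 and 3.87 in wild type, 4.48 and 4.08 in MYO-OX and 4.31 and 4.2 in atx1 in watered plants, and at 10.88 and 10.19 in wild type, 9.95 and 10.61 in MYO-OX and 4.68 and 4.3 in atx1 under deficit. The reference arrays were higher by 6.52 and 6.0 on average, and the atx1 deficit arrays lay near the watered level, so that the difference of responses was -6.03 (SE 0.38, limma adjusted p = 0.00334). Another such locus, AT1G07590, had deficit signals of 11.13 and 9.26 in wild type, 9.63 and 11.37 in MYO-OX and 4.60 and 5.37 in atx1, and a difference of -5.47 (SE 0.91, limma adjusted p = 0.0397). Both loci were picked after their values were seen.

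**Figure D4:**
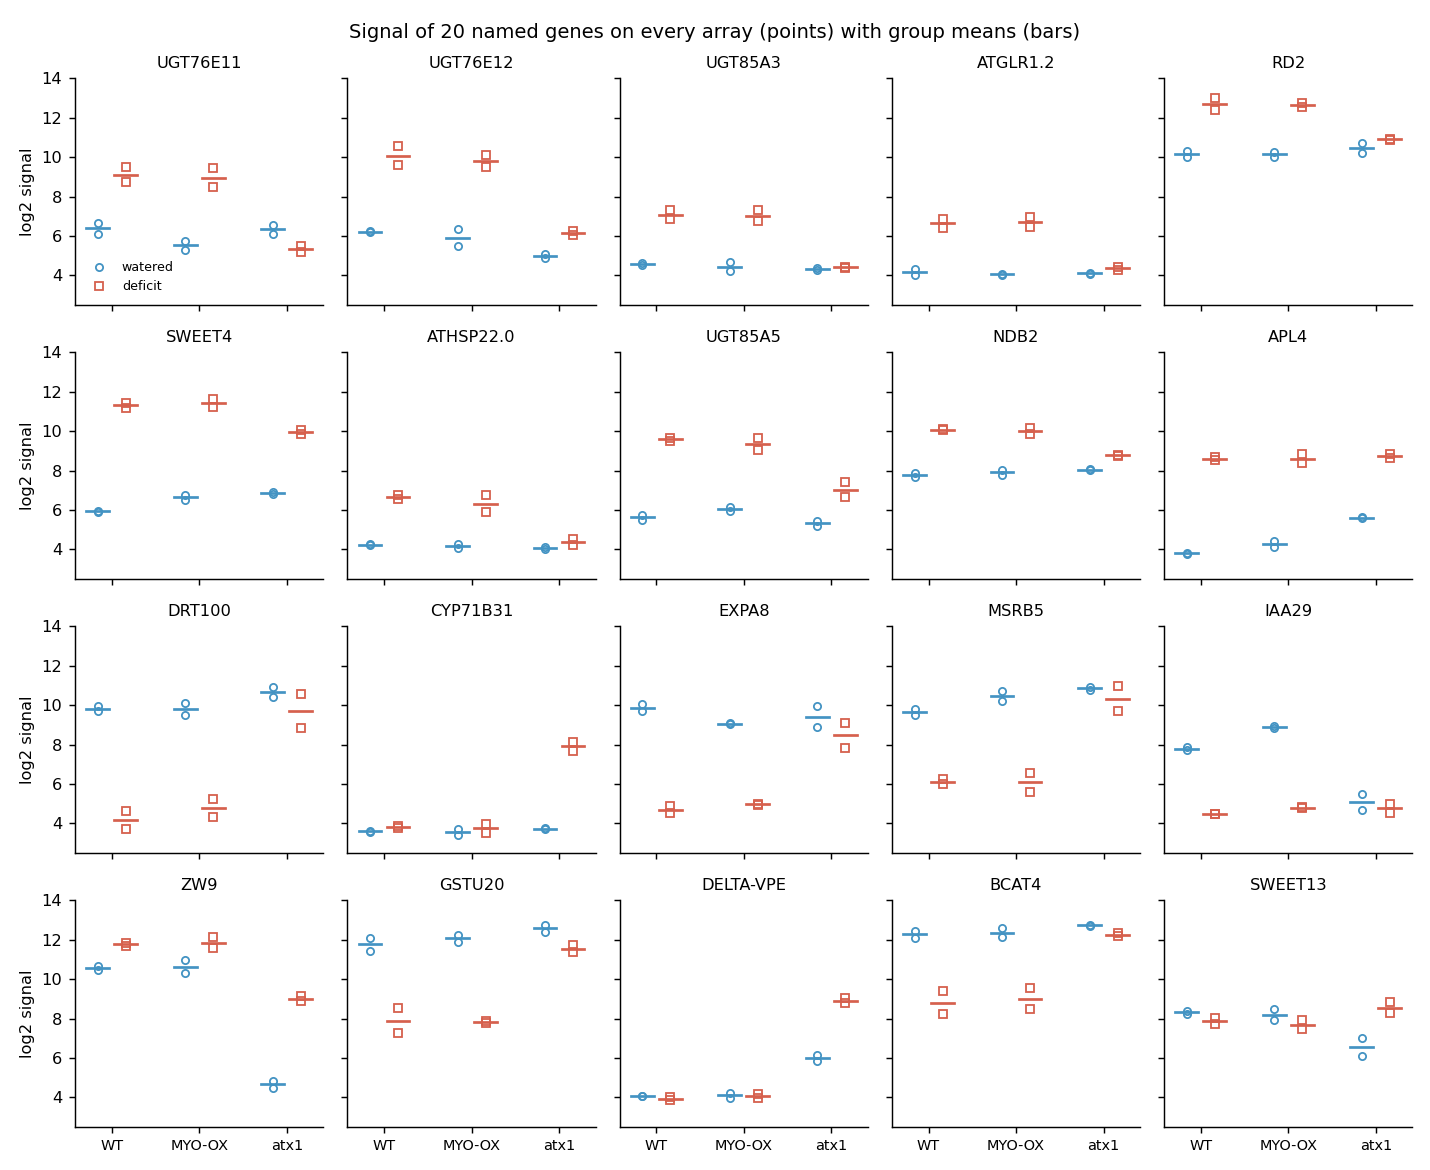
Log2 signal of the 10 named genes with the most negative (upper rows) and the 10 with the most positive (lower rows) difference of responses, on every array (open symbols) with group means (bars), watered (blue circles) and under deficit (red squares) in wild type (WT), MYO-OX and atx1. In the upper rows the atx1 deficit squares lie below those of the other lines except for APL4; in the lower rows they lie above, except for IAA29, where the lines differ in watered plants, and ZW9, where atx1 is lower in both water states.

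EXPA8, called higher in atx1, encodes an expansin, a protein that loosens the cell wall. Its watered signals were 9.70 and 10.04 in wild type, 9.05 and 9.08 in MYO-OX and 9.94 and 8.88 in atx1, and its deficit signals 4.52 and 4.87 in wild type, 5.0 and 4.93 in MYO-OX and 9.11 and 7.84 in atx1. Watered groups overlapped, and under deficit both atx1 arrays were far above all 4 reference arrays, although they differed from each other by over 1. The difference of responses was 3.70 (SE 0.54, limma adjusted p = 0.0282). Of 18 measured expansins and xyloglucan endotransglucosylases among 40 on the list, EXPA8 was the only one called, and 14 lay above 0, with a median of 0.89 against -0.02 over all probe sets. With arrays centred on their medians 12 lay above 0. The wall-remodelling enzymes XTH16 at 2.71 and XTH19 at 2.4 had the next largest values, without passing (limma adjusted p = 0.121 and 0.152). For XTH16 the gap to the reference lay under deficit, at 2.63 (limma adjusted p = 0.00842). For XTH19 it lay in watered plants, at -2.38 (limma adjusted p = 0.0306), with 0.02 under deficit (limma adjusted p = 0.984).

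DRT100, named for DNA damage repair and toleration, had the most positive difference of all probe sets. It was at 9.96 and 9.70 in wild type, 10.12 and 9.48 in MYO-OX and 10.94 and 10.40 in atx1 in watered plants, and at 3.72 and 4.61 in wild type, 4.33 and 5.25 in MYO-OX and 10.56 and 8.82 in atx1 under deficit. The reference lines were lower under deficit by 5.66 and 5.01, while 1 of the atx1 arrays stayed within the watered range and the other lay below it. The contrast with the reference response was 4.36 (SE 0.72, limma adjusted p = 0.0393). THE1, a receptor kinase that monitors the cell wall, was lower under deficit in every line, at 5.15 and 4.81 in wild type, 4.87 and 4.91 in MYO-OX and 6.06 and 5.64 in atx1. Its difference of responses was 1.75 (SE 0.25, limma adjusted p = 0.0253), with watered signals of 8.24 and 7.96 in wild type, 8.41 and 8.51 in MYO-OX and 7.40 and 7.48 in atx1.

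Of the 4 measured genes of glucosinolate synthesis, among 27 on the list, 2 were called higher, where 0.567% of all probe sets were, and all 4 lay above 0, where 47.9% did, with a median of 1.95; glucosinolates are sulphur-rich defence compounds. BCAT4 encodes the aminotransferase that starts the chain elongation of methionine in this pathway. It was at 12.45 and 12.10 in wild type, 12.13 and 12.58 in MYO-OX and 12.76 and 12.70 in atx1 in watered plants, and at 8.24 and 9.38 in wild type, 9.55 and 8.48 in MYO-OX and 12.17 and 12.33 in atx1 under deficit. Both reference lines were lower by more than 3 under deficit, and atx1 stayed close to its watered level, with a difference of responses of 2.92 (SE 0.52, limma adjusted p = 0.0482). GSTU20, a glutathione transferase on the same list, was at 12.12 and 11.44 in wild type, 11.91 and 12.27 in MYO-OX and 12.77 and 12.41 in atx1 in watered plants, and at 7.25 and 8.53 in wild type, 7.80 and 7.87 in MYO-OX and 11.73 and 11.36 in atx1 under deficit. Its atx1 deficit arrays were the only deficit arrays near the watered level, and the difference of responses was 3.03 (SE 0.50, limma adjusted p = 0.0394). UGT74B1, which glycosylates the thiohydroximate intermediate, did not pass at 0.97 (limma adjusted p = 0.534). MYC4 encodes a transcription factor of jasmonate signalling that also acts on glucosinolate genes. Its deficit signals were 4.98 and 5.41 in wild type, 4.98 and 4.78 in MYO-OX and 6.44 and 6.78 in atx1, with a difference of responses of 1.81 (SE 0.29, limma adjusted p = 0.0352).

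MSRB5, which reduces oxidized methionine in proteins, was at 9.83 and 9.52 in wild type, 10.70 and 10.21 in MYO-OX and 10.93 and 10.80 in atx1 in watered plants, and at 5.97 and 6.26 in wild type, 6.58 and 5.61 in MYO-OX and 10.97 and 9.69 in atx1 under deficit. The reference lines were lower under deficit by 3.56 and 4.36 and atx1 changed by -0.53, a difference of 3.42 (SE 0.54, limma adjusted p = 0.0352). The related MSRB6 had responses of -4.39 in atx1 against -4.58 in wild type and -4.46 in MYO-OX, with a difference of 0.13 that did not pass (limma adjusted p = 0.959). MSRB5 was the only call among the 4 measured genes of oxidative stress. FLDH, a farnesol dehydrogenase, had deficit signals of 5.09 and 5.59 in wild type, 5.26 and 5.14 in MYO-OX and 6.78 and 6.45 in atx1 and a difference of 1.60 (SE 0.29, limma adjusted p = 0.0495).

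In a further group of genes the responses of the reference lines were near 0 and that of atx1 was not. CYP71B31, a cytochrome P450, was at 3.61 and 3.56 in wild type, 3.73 and 3.41 in MYO-OX and 3.70 and 3.74 in atx1 in watered plants, and at 3.88 and 3.73 in wild type, 3.98 and 3.5 in MYO-OX and 8.15 and 7.68 in atx1 under deficit. The signal was at the bottom of the scale on 10 arrays and high only on the atx1 deficit arrays, with a difference of responses of 3.99 (SE 0.28, limma adjusted p = 0.00418). It was the only one called of 26 measured cytochrome P450 genes with a symbol, collected after values were seen. Any members without such a symbol were not included. DELTA-VPE, a vacuolar cysteine protease known from the seed coat, was at 4.07 and 4.06 in wild type, 4.24 and 3.99 in MYO-OX and 6.13 and 5.83 in atx1 in watered plants, and at 4.0 and 3.85 in wild type, 4.18 and 3.95 in MYO-OX and 9.03 and 8.80 in atx1 under deficit. It was already higher in watered atx1, and the difference of responses was 3.03 (SE 0.23, limma adjusted p = 0.00424). The 3 other vacuolar processing enzymes, collected after values were seen, lay below 0 without passing, BETA-VPE at -1.23, ALPHA-VPE at -0.55 and GAMMA-VPE at -0.42.

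GILT, a thiol reductase of the lysosomal type, was near the bottom of the scale in the reference lines in both water states, and in atx1 at 8.34 and 8.74 when watered and 10.21 and 10.92 under deficit. The gap between atx1 and the reference was 4.83 (limma adjusted p = 4.14e-05) in watered plants and 6.73 (limma adjusted p = 7.18e-06) under deficit, so that the difference of responses, 1.90 (SE 0.32, limma adjusted p = 0.0416), came on top of a larger standing difference. RALFL25, a member of the RALF signalling peptides, reached 5.19 and 5.44 in atx1 under deficit against 3.48 to 3.6 in the reference, a difference of responses of 1.29 (SE 0.21, limma adjusted p = 0.0397). LCR72, a plant defensin also called PDF2.6, reached 5.39 and 5.80 against 3.93 to 4.15, a difference of responses of 1.29 (SE 0.23, limma adjusted p = 0.0452). Both lay low on the scale.

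The sugar exporters SWEET13 and SWEET14 were also called higher. SWEET13 was at 8.25 and 8.41 in wild type, 7.91 and 8.47 in MYO-OX and 7.03 and 6.09 in atx1 in watered plants, and at 7.73 and 8.0 in wild type, 7.95 and 7.45 in MYO-OX and 8.84 and 8.27 in atx1 under deficit. Watered atx1 lay below the other lines and atx1 under deficit above their deficit arrays, at 2.47 (SE 0.44, limma adjusted p = 0.0479) for the difference of responses. SWEET14 reached 6.21 and 6.27 in atx1 under deficit, above all other arrays, with a difference of 1.4 (SE 0.25, limma adjusted p = 0.0481). Of 15 measured SWEET genes, collected from the annotation after values were seen, 2 were called higher, 1 lower, and 10 lay above 0, with a median of 0.64.

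The SWEET genes SWEET9, SWEET8 and SWEET7 were above the reference in atx1 in both water states, where 2.11% of all probe sets were called higher in watered plants and 10.3% under deficit. SWEET9, which exports sucrose in nectaries, was at 3.94 and 3.94 in wild type, 3.88 and 3.93 in MYO-OX and 6.52 and 5.61 in atx1 in watered plants, and at 3.92 and 3.83 in wild type, 4.16 and 3.84 in MYO-OX and 7.95 and 6.41 in atx1 under deficit. The gap to the reference was 2.14 (limma adjusted p = 0.0255) in watered plants and 3.24 (limma adjusted p = 0.00176) under deficit, while the difference of responses did not pass, at 1.1 (SE 0.57, limma adjusted p = 0.439). SWEET8, which is needed in anthers for pollen development, had gaps of 1.66 (limma adjusted p = 0.0319) in watered plants and 2.3 (limma adjusted p = 0.00332) under deficit, and a difference of responses of 0.64 (SE 0.47, limma adjusted p = 0.609). SWEET7, a further member, had gaps of 0.93 (limma adjusted p = 0.0433) and 1.52 (limma adjusted p = 0.00235). In SWEET13 the watered gap had the opposite sign, at -1.70 (limma adjusted p = 0.0232). These genes were named after their values were seen. None of the 7 flower, 5 seed, 6 root and 5 floral transition markers had a named probe set, so the content of such tissue was not measured by markers, and its part in the results was not tested.

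IAA29, a repressor of auxin-responsive transcription, was at 7.70 and 7.88 in wild type, 8.96 and 8.83 in MYO-OX and 5.50 and 4.69 in atx1 in watered plants, and at 4.49 and 4.46 in wild type, 4.81 and 4.77 in MYO-OX and 5.0 and 4.51 in atx1 under deficit. The watered atx1 arrays were close to the deficit arrays of the other lines, and under deficit the atx1 arrays overlapped theirs. The contrast with the reference response was 3.36 (SE 0.33, limma adjusted p = 0.00916), with a gap of -3.25 (limma adjusted p = 4.10e-04) in watered plants and 0.12 (limma adjusted p = 0.796) under deficit. GH3.17, which conjugates auxin to glutamate, had a gap of -1.01 (limma adjusted p = 0.0379) in watered plants and 0.85 (limma adjusted p = 0.0278) under deficit, and a difference of responses of 1.86 (SE 0.30, limma adjusted p = 0.0364). Of the 4 measured members among 24 on the auxin list, IAA29 was called and 3 lay above 0. The other members passed in neither water state, with gaps in watered plants and under deficit of -0.79 and 1.17 for WES1, -0.11 and -0.63 for GH3.3, and -0.32 and -0.10 for IAA30. ZW9 was at 10.66 and 10.46 in wild type, 10.30 and 10.96 in MYO-OX and 4.48 and 4.83 in atx1 in watered plants, and at 11.86 and 11.69 in wild type, 12.15 and 11.56 in MYO-OX and 8.88 and 9.15 in atx1 under deficit. It was lower in atx1 than in the other lines in both water states, and the gap narrowed from -5.94 to -2.80, a difference of responses of 3.14 (SE 0.34, limma adjusted p = 0.0142).

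On the list of protective proteins that accumulate on dehydration, every measured member had a smaller response in atx1 by value. None of these members passed the test of the response. Proteins of this kind that are not on the list were not counted. Of 20 genes on the list 7 were measured, 0 were called and all 7 lay below 0, with a median of -2.10 against -0.02 over all probe sets; centring of the arrays and repeated quantile normalization left all 7 below 0. LEA18, a late embryogenesis abundant protein, had deficit signals of 11.01 and 10.30 in wild type, 10.43 and 10.73 in MYO-OX and 6.79 and 8.97 in atx1. The 2 atx1 arrays lay below all reference arrays but differed from each other by over 2, and the difference of responses was -3.02 (SE 0.72, limma adjusted p = 0.106). COR15A, a protein that protects chloroplast membranes, had deficit signals of 13.47 and 13.28 in wild type, 13.74 and 13.71 in MYO-OX and 11.47 and 10.94 in atx1 and a difference of -2.31 (SE 0.63, limma adjusted p = 0.15). COR47, a dehydrin, had deficit signals of 14.03 and 13.58 in wild type, 13.96 and 14.14 in MYO-OX and 12.66 and 12.998 in atx1 and a difference of -1.71 (SE 0.46, limma adjusted p = 0.146). The others were LEA4-5 at -2.41, COR15B at -2.10, AtLEA4-1 at -1.55 and LTI30 at -1.41.

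Under deficit alone the same list did show a tested gap. The level in atx1 was below the reference mean by the limma test for LEA18 at -2.74 (limma adjusted p = 0.00925), LEA4-5 at -2.57 (limma adjusted p = 0.02), COR15A at -2.35 (limma adjusted p = 0.0102), LTI30 at -2.09 (limma adjusted p = 0.014) and AtLEA4-1 at -1.55 (limma adjusted p = 0.0235). COR47 at -1.1 (limma adjusted p = 0.0536) and COR15B at -0.91 (limma adjusted p = 0.438) did not pass. That is 5 of 7, where 6.83% of all probe sets were called lower under deficit. These gaps were not examined with the GAPDH covariates, and the Athal difference was largest on the atx1 deficit arrays.

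No gene on the photosynthesis lists passed the test of the response. Of 7 measured nuclear antenna and photosystem subunits, 0 were called and all 7 lay above 0, with a median of 0.52, and 6 did after median centring or repeated quantile normalization. LHCB4.3, an antenna protein of photosystem II, had the largest value, with responses of -0.08 in atx1 against -1.4 in wild type and -1.27 in MYO-OX and a difference of 1.25 (SE 0.38, limma adjusted p = 0.191). Among 69 probe sets for genes of the plastid genome, collected after values were seen, 0 were called and 56 lay above 0 and 13 below, with a median of 0.52, or 47 above and 22 below after centring. Of 3 measured carbon fixation genes 0 were called, with a median of 0.11, or -0.03 after centring. Among them RCA, rubisco activase and the only measured mesophyll marker, was at -0.34 (SE 0.94, limma adjusted p = 0.915), with signals of 10.81 to 13.78 over all arrays.

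Autophagy, which recycles cell contents, had 10 measured members of 15, with 0 called and 8 below 0, at a median of -0.45. ATG8H, which encodes a protein of the autophagosome membrane, had the most negative value, with responses of 1.94 in atx1 against 4.22 in wild type and 4.0 in MYO-OX and a difference of -2.17 (SE 0.70, limma adjusted p = 0.212). Senescence genes were divided: of 5 measured, 0 were called, 3 lay below 0 and 2 above, with a median of -0.53. SAG29 at -1.50, WRKY6 at -1.38 and PPDK at -0.53 lay below 0, and WRKY53 at 1.4 and SAG101 at 0.73 above it. By level under deficit, WRKY6 passed below the reference, at -2.03 (limma adjusted p = 0.00687), and SAG101 above it, at 0.88 (limma adjusted p = 0.0265). The other members did not pass there. On the list of tubulins and cellulose synthases the 7 measured members were all tubulins, of which 0 were called and 5 lay above 0, with a median of 0.81. Under deficit alone TUB5 at 2.83, TUB1 at 2.73, TUA6 at 2.14 and TUB6 at 1.97 passed above the reference (limma adjusted p = 0.0121, 0.0109, 0.00394 and 0.0138). TUA1 passed below it, at -1.39 (limma adjusted p = 0.0153), TUB7 and TUB9 did not pass, and no tubulin passed in watered plants. Of all probe sets, 10.3% were called higher and 6.83% lower under deficit. Cell division genes had 4 measured members, 0 called for the response. ICU2, a subunit of DNA polymerase alpha, was above the reference in both water states, with gaps of 2.05 (limma adjusted p = 0.00474) in watered plants and 1.74 (limma adjusted p = 0.00398) under deficit, as was TOPII, a DNA topoisomerase, at 2.15 (limma adjusted p = 0.0123) and 1.56 (limma adjusted p = 0.0166). AUR1 and PRL passed under deficit, at 1.37 (limma adjusted p = 0.0218) and 2.97 (limma adjusted p = 0.00343), but not in watered plants, at 1.22 (limma adjusted p = 0.0846) and 1.92 (limma adjusted p = 0.0509). That is 2 of 4 in watered plants, where 2.11% of all probe sets were called higher, and 4 of 4 under deficit, where 10.3% were. Of 2 measured guard cell markers, FMA, a stomatal transcription factor, was at 0.60 (SE 0.19, limma adjusted p = 0.208) and the locus AT1G22690 at 1.12 (SE 0.55, limma adjusted p = 0.41). The summed log2 signal of both lay at 10.2 and 10.5 in atx1 under deficit, within the 10.1 to 10.7 of the reference. In watered plants it lay at 14.5 and 15.3 in atx1, against 16.1 to 17.3 in the reference. Neither marker passed there, with gaps of -0.19 for FMA (limma adjusted p = 0.617) and -1.48 for AT1G22690 (limma adjusted p = 0.0819). For FMA the watered arrays of atx1 overlapped those of MYO-OX. The part of these gaps in the other results was not tested.

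Over the 30 lists, 101 of 525 members had a named probe set, in 22 lists, and the 8 lists without one included abscisic acid synthesis, abscisic acid signalling, aquaporins and salicylate defence. Among the smaller lists, 0 members passed for flavonoid and anthocyanin synthesis (5 measured, median 1.29), jasmonate (2 measured), Trithorax and Polycomb factors (2 measured), and osmolytes, drought-linked transcription factors, wax and the circadian clock (1 measured each). Their best expressed members were DFR at 1.59, THI2.1 at 1.09, RBL at -0.54, ALDH10A8 at -0.33, STZ at 0.59, WSD1 at 0.22 and GI at -0.60. By level, STZ in atx1 was below the reference in watered plants, at -2.60, and under deficit, at -2.01 (limma adjusted p = 0.0216 and 0.0215). Under deficit THI2.1 at 2.64 and WSD1 at 1.42 passed above it (limma adjusted p = 0.0113 and 0.0232). In watered plants RBL passed above it, at 1.33 (limma adjusted p = 0.0498). DFR, ALDH10A8 and GI passed in neither water state.

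**Figure D5:**
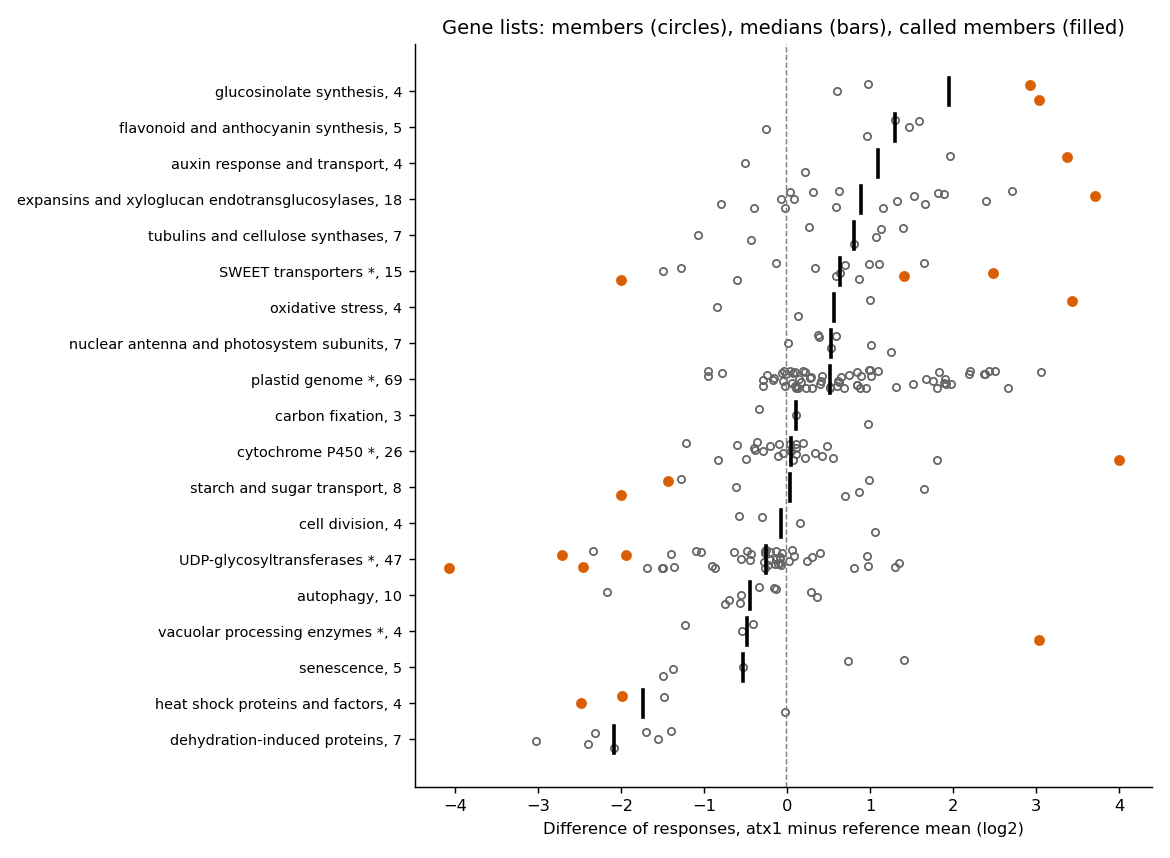
Difference of responses (log2, atx1 minus the mean of wild type and MYO-OX) for each measured member of the lists with 3 or more measured members (number after the name; open circles not called, filled circles called), with list medians (bars) and the median of all 22746 probe sets (dashed). Lists marked with an asterisk were collected from the annotation after values were seen, and the others were chosen with earlier results of these data known. Dehydration-induced proteins and heat shock proteins lie to the left, at medians of -2.10 and -1.74, and glucosinolate synthesis to the right, at 1.95.

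Of the 29 called genes that have a symbol or are on a list, all kept their direction under every alternative, and 3 were also called in every one of them that tested them: CYP71B31, DELTA-VPE and IAA29. ZW9 was lost only when either watered atx1 array or replicate 1 of atx1 under deficit was left out. With the Athal GAPDH difference as a covariate, 4 of the 29 passed, and these were CYP71B31, DELTA-VPE, IAA29 and ZW9. The called genes nearest to the threshold were FLDH, at a limma adjusted p of 0.0495, UGT85A5 at 0.0488, and BCAT4 and AT1G53540, both at 0.0482, and the first probe set outside it stood at 0.0503.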

How the data were processed

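Total RNA of whole rosettes was measured as biotin-labelled cRNA on Affymetrix ATH1 arrays, 2 arrays in each of 6 groups. The values are log2 signals deposited by the authors, who made them with RMA per the submitters' processing notes; no source used here gives its version. RMA compresses differences at low signal, and no detection calls were used, so a fold near the bottom of the scale is uncertain. The number of arrays limits the precision. Of 22810 probe sets, 64 controls were set apart. The array annotation lists 14016 probe sets, 13436 of which matched 1 locus of TAIR10.1, used for names only, and 1551 a symbol; 9310 tested probe sets had no single matched locus. limma 3.58.1 in R 4.3.3 was fitted with a mean per group over the 12 arrays (6 residual and 2.34 prior degrees of freedom), with two-sided p-values adjusted by Benjamini-Hochberg over 22746 probe sets. The step was tested on simulated data with noise independent between arrays, so the test does not cover correlated deviations of same-numbered arrays. Named genes were the 10 most negative and 10 most positive called genes with a symbol, up to 3 called members of each list, and the best expressed member of lists without one. The comparison, the members and the lists were chosen with earlier results of these data known. The alternatives were a replicate block, median centring, repeated quantile normalization, leaving out the dimmest 40% of probe sets, an intensity trend with a robust prior, array weights, 1 probe set per gene, other references, control probe sets as covariates and each array left out in turn.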

Additional observations from a re-analysis of the deposited data

Results flagged for a closer look

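The water-deficit response of atx1 differed from that of wild type and MYO-OX in 221 probe sets, by the limma test of the difference of the responses itself. The named genes that met this test with a lower response in atx1 were UGT76E11 at -4.08, UGT76E12 at -2.71, AT1G53540 at -2.49, UGT85A3 at -2.46, ATGLR1.2 at -2.31, RD2 at -2.07, SWEET4 at -2.00, ATHSP22.0 at -1.99, UGT85A5 at -1.95, NDB2 at -1.46 and APL4 at -1.44, as differences of responses on the log2 scale. Those with a higher response were DRT100 at 4.36, CYP71B31 at 3.99, EXPA8 at 3.70, MSRB5 at 3.42, IAA29 at 3.36, ZW9 at 3.14, GSTU20 at 3.03, DELTA-VPE at 3.03 and BCAT4 at 2.92, and further SWEET13 at 2.47, GILT at 1.90, GH3.17 at 1.86, MYC4 at 1.81, THE1 at 1.75, FLDH at 1.60, SWEET14 at 1.4, RALFL25 at 1.29 and LCR72 at 1.29. The control probe sets, which are outside the gene measurements, also differed: the spiked hybridization controls averaged 9.85 and the Athal GAPDH difference between 3' and 5' averaged 1.47 in atx1 under deficit, above the group means of all other groups. Groups of 2 arrays are too small for a check of single outlying arrays.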

How the results depend on the processing

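Counts of calls are given in the order response, deficit gap and watered gap, against 221, 3894 and 881. Moved by over 1.5 times, the response count was 139 without the dimmest 40% of probe sets, 100 with 1 probe set per gene (1979 and 437 for the gaps), 40 against wild type alone (watered gap 501), 50 against MYO-OX alone (deficit gap 2539) and 515 with both pooled. It was 133 with the hybridization controls as covariate (watered gap 1353), 100 with the mean GAPDH difference (watered gap 1475) and 23 with the Athal difference alone, chosen after seeing the data (2216 and 1585). Fewer probe sets were tested in the first 2 settings, 13647 and 13286; the cause of the other moves was not tested. Leaving out each array in turn gave 15 to 847, 1263 to 5317 and 306 to 2181, and 0 to 1 for MYO-OX minus wild type. Median centring (200), repeated quantile normalization (265), an intensity trend with a robust prior (238) and array weights (163) stayed within 1.5 times for the response count. With the replicate number as a block 223 were called, 21 of the 29 named calls passed, and the gaps had 4755 and 1028 calls. The 8 others, UGT76E12, APL4, GSTU20, BCAT4, SWEET13, AT1G53540, FLDH and LCR72, had limma adjusted p-values of 0.0501 to 0.061 with the block. Deviations of same-numbered arrays correlated at 0.51 to 0.56 in the 3 pairs of watered groups. Over all 15 pairs of groups the correlations ran from -0.29 to 0.56, with 9 over 0.1. The hybridization controls of replicate 1 lay above those of replicate 2 in every group. The labels name no shared batch, and whether same-numbered arrays are paired over all groups was not established. No named call reversed.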
